A study of Homo sapiens with 7 samples.

Results

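MDM2, MDM4, BBC3, BAX, GADD45A, SESN1, TP53I3, ZMAT3 and FDXR, 7 of which are textbook targets of p53 alongside the p53 inhibitors MDM2 and MDM4, were examined in T47D/A1-2 breast cancer cells. The 9 genes were taken by name from the 26175 genes with an RNA-seq value, and their transcription start sites (TSSs) from the Start-seq calls inside each gene's locus widened by 1000 nts. Of 10391 called gene TSSs in the whole data set, 12 lay in these loci, and 9 of the 12 were at a start of the gene itself, in 8 of the 9 genes. The other 3 started neighbouring genes.

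The samples form a single condition. The cells, labelled T-47D, are a luminal line, and A1-2 is a subline of it with added rat glucocorticoid receptor and a luciferase gene under the MMTV promoter in its genome. They were grown in 10% serum and moved to 5% charcoal-stripped serum for at least 24 hours before harvest, without any treatment aimed at p53. T-47D cells are known to carry a mutated p53, so the values below describe target genes in a line without normal p53 and without an agent that damages DNA. RNA-seq values are FPKM (fragments scaled by transcript length and by sequencing depth), with a single value per gene from 3 merged replicates, which leaves no estimate of replicate error. TSS calls are single positions from Start-seq replicate 1 without read counts, and their depth is not known. With no second condition, the values were described beside those of all genes or all gene TSSs, and no test was run. The 9 luminal markers that were checked had FPKM values from 44.1 to 1142, summing to 3596. Of 10 markers of leukocytes, fibroblasts, endothelial and basal cells, 4 were listed at 0 and 2 reached an FPKM of 1, the higher being COL1A1 at 8.82, and the 10 summed to 11.2.

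In normal cells p53 is a transcription factor that is kept low by MDM2, an E3 ubiquitin ligase that marks it for degradation, and by MDM4, a related protein that blocks its activation domain. Stress releases p53, which binds paired half-sites in DNA and activates genes for cell cycle arrest, DNA repair, apoptosis and metabolism. MDM2 is itself a target, which closes a negative feedback loop, and it is known for a promoter ahead of the gene and a p53-responsive promoter within intron 1.

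The sequences that surround the called gene TSSs show where initiation was placed. Each runs from 35 nts upstream to 5 nts downstream of the TSS on the strand of the gene, and the capitals mark the bases at -1 and +1, +1 being the called position. They were read from GRCh37, which has the same chromosome sequences as hg19.

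MDM2 (chr12:69202769-69202808, plus strand): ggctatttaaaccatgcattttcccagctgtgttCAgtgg
MDM4 (chr1:204485502-204485541, plus strand): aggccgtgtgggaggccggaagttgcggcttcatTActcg
BAX (chr19:49458277-49458316, plus strand): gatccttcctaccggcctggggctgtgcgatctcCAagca
GADD45A (chr1:68150849-68150888, plus strand): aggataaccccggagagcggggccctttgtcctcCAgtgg
SESN1, upstream TSS (chr6:109415980-109416019, minus strand): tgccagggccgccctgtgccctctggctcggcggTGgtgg
SESN1, internal TSS (chr6:109330751-109330790, minus strand): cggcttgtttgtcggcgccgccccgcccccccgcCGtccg
TP53I3 (chr2:24307700-24307739, minus strand): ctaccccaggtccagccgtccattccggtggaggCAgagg
ZMAT3 (chr3:178789568-178789607, minus strand): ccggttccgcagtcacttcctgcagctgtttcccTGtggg
FDXR (chr17:72869115-72869154, minus strand): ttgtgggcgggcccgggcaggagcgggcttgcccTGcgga

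The core of the initiator, C or T at -1 and A or G at +1, was found at 9 of the 9 gene TSSs, against 66.1% of all gene TSSs. The pair was CA at 4 of them, namely MDM2, BAX, GADD45A and TP53I3, against 30.3% of all gene TSSs. The GC box GGGCGG, on either strand within 100 nts upstream, was found at 4 of the 9, against 50.2%. It occurred 3 times each at FDXR and at the internal SESN1 TSS, 2 times at the upstream SESN1 TSS and once at BAX, and was not found in these windows at MDM2, MDM4, GADD45A, TP53I3 or ZMAT3.

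Steady-state RNA was detected from all 9 genes, over a 59.0-fold range of FPKM from MDM4 to TP53I3. An FPKM of at least 1 was reached by 9 of 9, against 46.9% of all genes in the table. The table also holds non-coding genes such as microRNAs, and 7888 of its genes were listed at 0, whereas the 9 genes are all protein-coding. The median FPKM of the 9 was 5.87, compared with 0.528 over all genes and 14.4 over the 12271 genes at an FPKM of at least 1. On the log2(FPKM + 0.1) scale the median levels were 2.58 for the 9 genes and -0.67 for all genes. The genes fell into 4 with higher values, from 17.2 to 178, and 5 with values between 3.01 and 5.87. FPKM is already scaled by transcript length, so these levels can be set side by side, but without replicate values it cannot be said which neighbours in the order differ.

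**Figure D1:**
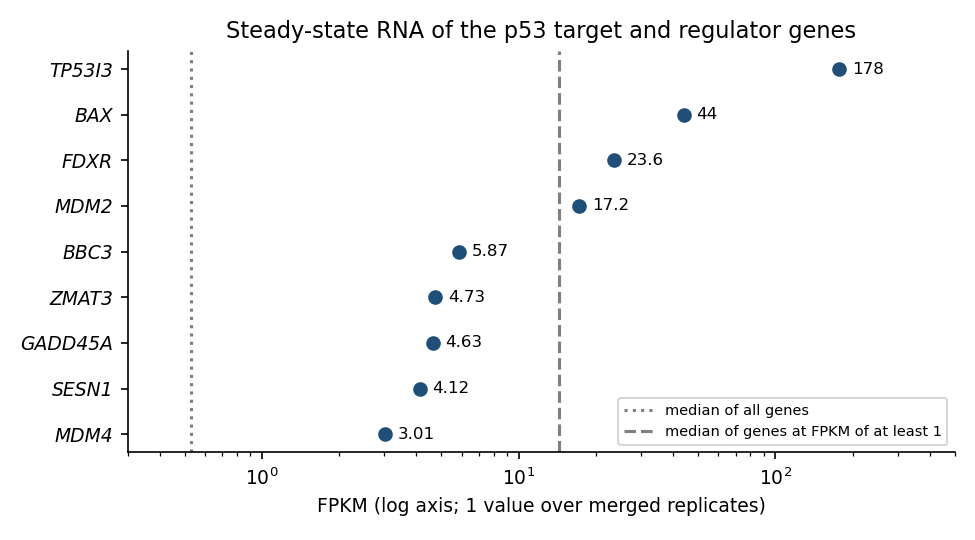
FPKM of the 9 genes on a log axis, 1 point per gene for the merged replicates, with the dotted line at the median of all genes (0.528) and the dashed line at the median of genes at an FPKM of at least 1 (14.4). TP53I3, BAX, FDXR and MDM2 lie above the dashed line and the other 5 genes between the lines.

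Among the inhibitors, MDM2 (ENSG00000135679) had an FPKM of 17.2, which was higher than that of 78.9% of genes, and MDM4 (ENSG00000198625) an FPKM of 3.01, the lowest of the 9, higher than that of 60.0% of genes. The level of MDM2 was thus 5.72 times that of MDM4. Both genes had 1 called gene TSS and a uaTSS, an antisense TSS called on the opposite strand within 1000 nts upstream, and neither had a daTSS, an antisense TSS called within 2000 nts downstream of the gene TSS. The authors removed daTSS calls that might belong to another gene start, so a missing daTSS can be a filtered call. The start sites of MDM2 and MDM4 differed in position within the gene.

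The MDM2 gene TSS was called at position 69202804 on the plus strand of chromosome 12, exactly at an annotated transcript start but 847 nts downstream of the first one, at 69201957. Exon 1 of the main annotated (MANE) transcript ends 314 nts from its start, so the call lay in intron 1, where the internal promoter is. No gene TSS was called near the first promoter. The calling method returns a single position per search window. Where its candidates differ, it keeps the one closest to the annotated start and not always the strongest. A start at the first promoter, weaker or stronger, could thus go unlisted, and without read counts the promoters cannot be compared. Of 10200 gene TSSs in genes with a MANE transcript, 3.49% lay as far or farther downstream of the MANE start, and the median distance in either direction was 32 nts. The FPKM value covers all MDM2 transcripts and does not divide them between promoters. The uaTSS was called at 69202640, 164 nts upstream of the gene TSS.

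MDM4 initiated at position 204485537 on the plus strand of chromosome 1, in exon 1 and 3 nts from an annotated start. Its uaTSS lay 144 nts upstream, at 204485393. The start codon is far from this TSS, 9110 nts downstream, with an intron between them.

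**Figure D2:**
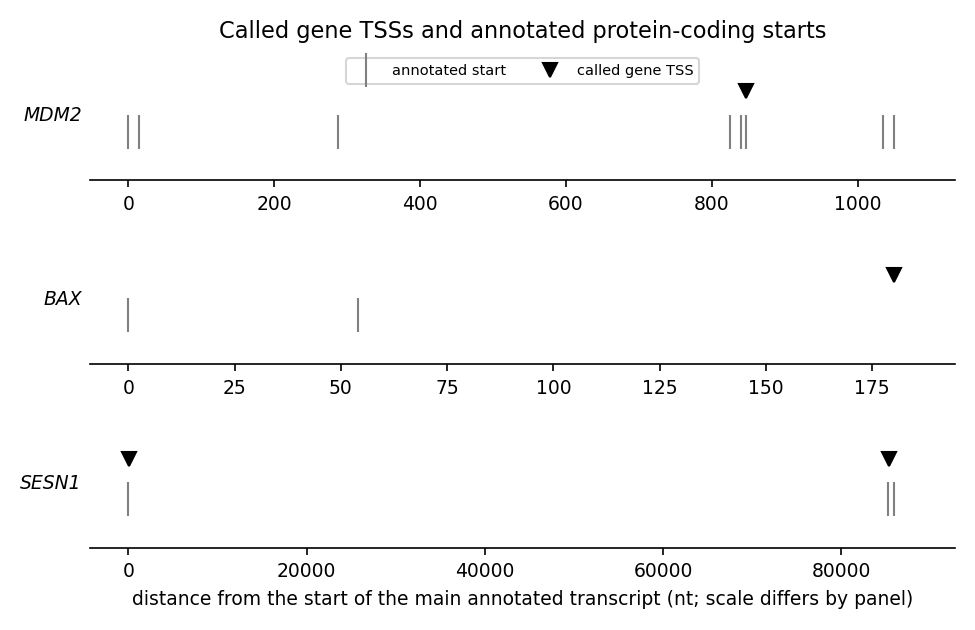
Annotated protein-coding transcript starts (grey bars) and called gene TSSs (black triangles) of MDM2, BAX and SESN1, by distance in nts from the start of the MANE transcript, with a different scale in each panel. The MDM2 call lies at 847 nts, the BAX call at 180 nts beyond both annotated starts, and the SESN1 calls at 65 and 85294 nts.

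The apoptosis genes stood far apart. BAX (ENSG00000087088), which permeabilizes the outer mitochondrial membrane, had an FPKM of 44.0, higher than that of 90.4% of genes. BBC3 (ENSG00000105327), which encodes the BH3-only protein PUMA that frees and activates BAX, had an FPKM of 5.87, so that BAX was 7.49 times higher.

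BBC3 was the only gene of the 9 without a called gene TSS in its widened locus on chromosome 19. A call on the same strand was present in the widened locus of 46.9% of 23609 genes, and of 79.1% of those at an FPKM of at least 1. By the nearest annotated start within 1000 nts, the share over all genes was 41.3%. These shares include non-coding genes, whereas the authors searched for gene TSSs only around annotated mRNA starts. BBC3 had an FPKM above 1, while no position in its locus was listed as a gene TSS. Its locus in the table is shared with the microRNA genes MIR3190 and MIR3191, both listed at 0. No antisense calls can exist for BBC3, because they are searched for only around a gene TSS.

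The BAX gene TSS was called at position 49458312 on the plus strand, 126 nts downstream of the nearest annotated start and 180 nts downstream of the MANE start. It lay in intron 1 of the MANE transcript and 126 nts downstream of its start codon, at which the nearest annotated transcript begins. Such a position, beyond the MANE start codon, was found for 10.0% of 10200 gene TSSs, among them also MDM2 and the internal TSS of SESN1. For the latter 2, the transcript that starts nearest has its own start codon 188 and 92 nts downstream of the call, whereas for BAX the nearest transcript has its start codon upstream of the call. A distance of 126 nts or more from the nearest annotated start was seen at 16.2% of gene TSSs. The BAX uaTSS was called 436 nts upstream, at 49457876, farther away than 85.8% of all uaTSSs.

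GADD45A (ENSG00000116717), whose protein acts in cell cycle arrest and DNA repair, had an FPKM of 4.63, higher than that of 63.6% of genes. Its gene TSS was called at position 68150884 on the plus strand of chromosome 1, which is the annotated start. It was the only one of the 9 gene TSSs with a daTSS and no uaTSS. The daTSS lay at 68152401 on the minus strand, in intron 3 and 1517 nts downstream of the gene TSS, farther than 95.6% of the 2956 daTSSs.

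SESN1 (ENSG00000080546) encodes a sestrin, a stress-induced inhibitor of mTORC1 signalling, and had an FPKM of 4.12, higher than that of 62.6% of genes. It was the only gene of the 9 with more than 1 called gene TSS, which was the case for 4.40% of the 9854 genes with a gene TSS. The gene TSSs, at 109415984 and 109330755 on the minus strand of chromosome 6, were 85229 nts apart, and the second lay in intron 1 of the MANE transcript. A uaTSS and a daTSS were listed at the internal site and not at the upstream one. The internal TSS had a uaTSS 216 nts upstream, at 109330971, and a daTSS 766 nts downstream, at 109329989. The upstream TSS had neither, but a gene TSS of CEP57L1 was called 353 nts upstream on the opposite strand, at 109416337. That position is inside the 1000 nts searched for a uaTSS, so opposite-strand initiation was called there, listed as a gene TSS. Whether this accounts for the missing uaTSS was not tested. Divergent pairs of this kind, with the gene TSSs at most 1000 nts apart, included 1 of the 9 gene TSSs, against 11.5% of all gene TSSs. The FPKM of CEP57L1 was 4.06, close to the 4.12 of SESN1, and the share of SESN1 RNA that comes from each promoter cannot be read from 1 value per gene.

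TP53I3 (ENSG00000115129), a quinone oxidoreductase also known as PIG3, had by far the highest value, an FPKM of 178. It had rank 385 among the 26175 genes, and TP53I3 was 4.04 times higher than BAX, the next of the 9. The gene TSS was called at position 24307704 on the minus strand of chromosome 2, at the annotated start. It had a uaTSS 125 nts upstream, at 24307829, and a daTSS 718 nts downstream, at 24306986 in intron 1. The locus listed with the FPKM value is shared by 3 genes. The gene TSSs of the other genes, PFN4 at 24346166 and FAM228B at 24346340, were 38462 and 38636 nts away, and their FPKM values were 0.630 and 5.13.

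FDXR (ENSG00000161513), the mitochondrial reductase that passes electrons to ferredoxin, had an FPKM of 23.6, higher than that of 83.1% of genes. Its gene TSS at 72869119 on the minus strand of chromosome 17 is an annotated start. The uaTSS at 72869596 was the most distant of the 7, at 477 nts, beyond 88.2% of all uaTSSs.

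ZMAT3 (ENSG00000172667), a zinc finger protein that binds RNA, had an FPKM of 4.73, within 0.1 of GADD45A and higher than that of 63.7% of genes. The gene TSS was called at 178789572 on the minus strand of chromosome 3, in exon 1 and 25 nts from the nearest annotated start. Its uaTSS at 178789652 was the closest of the 7, at 80 nts, with 10.2% of all uaTSSs nearer to their gene TSS.

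Over all 9 gene TSSs, a uaTSS was called at 7 (exact Clopper-Pearson 95% interval 40.0% to 97.2%), against 53.1% of all gene TSSs. The 2 without one were the GADD45A TSS and the upstream SESN1 TSS. The latter has the CEP57L1 gene TSS on the opposite strand within the uaTSS search window. A daTSS was called at 3 (exact 95% interval 7.49% to 70.1%), against 28.4% of all gene TSSs, and both were called at 2, against 17.5%. The intervals cover the counting of calls alone and are not a test. The genes were picked by name and SESN1 gave 2 of the gene TSSs, so these are not independent draws. The uaTSS distances ran from 80 to 477 nts with a median of 164 nts, compared with a median of 200 nts over all 5519 uaTSSs. The 3 daTSSs lay 718, 766 and 1517 nts downstream, all beyond the median of 507 nts over all daTSSs. The gene with the highest FPKM, TP53I3, and one of the lowest, SESN1, both carried the full set of 3 calls.

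**Figure D3:**
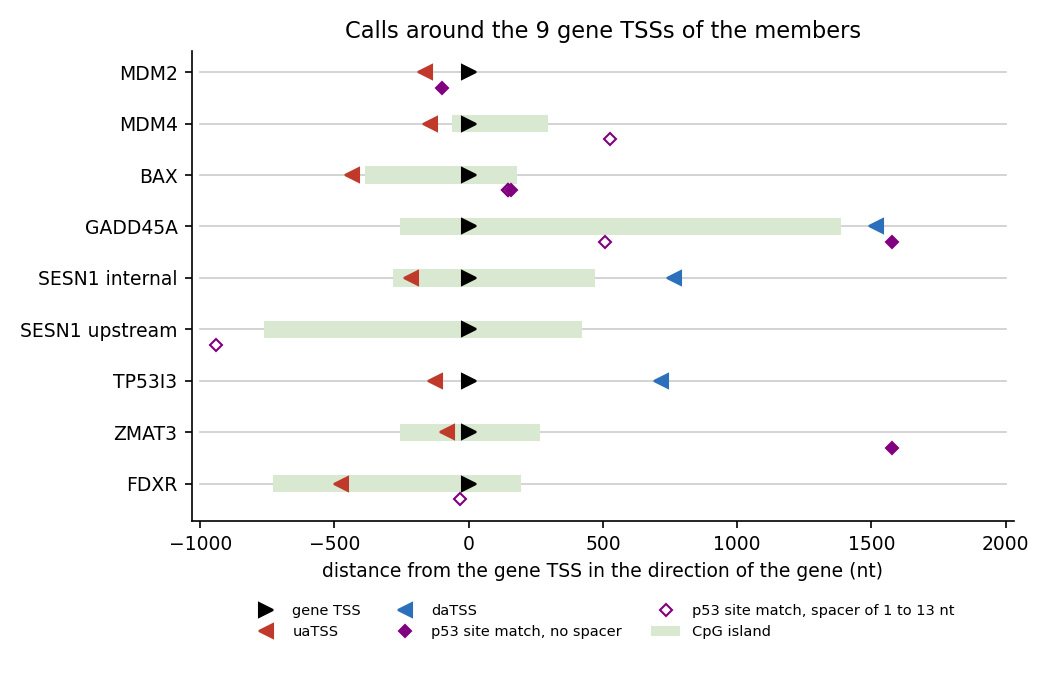
Called TSSs around the 9 gene TSSs, by distance in nts in the direction of the gene, with gene TSSs in black, uaTSSs in red, daTSSs in blue, CpG islands in green and matches to the p53 site with at most 2 mismatches in purple, filled where the half-sites are adjacent. Of the 9 sites, 7 have a uaTSS and 3 a daTSS, and no segment that met the island limits covered the MDM2 and TP53I3 TSSs.

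CpG islands overlapped 7 of the 9 gene TSSs, against 82.7% of all gene TSSs. The search first delimited CpG-dense segments with a running score that each CpG raised by 17 and each other base lowered by 1, a segment ending at the highest score before the return to 0. Segments longer than 200 bp with a GC content of 50% or more and a ratio of observed to expected CpGs above 0.6 were then kept. No such segment covered the gene TSSs of MDM2 and TP53I3, which differed in base composition. The limits apply to the segments, not to a fixed window. In the 1000 nts around the MDM2 TSS the GC content was 51.0%, with lower values at 6.19% of gene TSSs, while the CpG ratio was 0.822, above the median of 0.782, so that this window taken as a whole would meet the GC and ratio limits. Around the TP53I3 TSS the GC content was 62.6%, close to the median of 63.0%, while the CpG ratio was 0.490, with lower values at 6.73% of gene TSSs. The 7 islands ranged in length from 358 bp at MDM4 to 1641 bp at GADD45A. At GADD45A the island ended 1386 nts downstream of the gene TSS, short of the daTSS.

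The p53 consensus consists of paired half-sites of 10 nts, each with 3 purines, a core of C, A or T, A or T, and G, and 3 pyrimidines. It reads the same on both strands. It was searched from 1000 nts upstream to 2000 nts downstream of each gene TSS, with a spacer of 0 to 13 nts between half-sites, at most 2 mismatches in all and none in the C and G of the cores. Matches with different spacers may overlap. Such a match was present at 7 of the 9 gene TSSs (exact 95% interval 40.0% to 97.2%), against 24.6% of all gene TSSs. With no spacer it was present at 4 of the 9, against 1.96%, and with at most 1 mismatch and any spacer at 2 of the 9, against 3.84%. A match describes letters in the reference and says nothing on whether p53 was bound in these cells. The genes were listed as p53 targets from earlier knowledge, which in part rests on such sites, so the interval is not a test against the share over all gene TSSs.

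The 4 matches with adjacent half-sites are shown on the strand of the gene, with the 4 central bases of each half-site in capitals. The best match ahead of the MANE start of BBC3 is printed with them.

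MDM2 (chr12:69202703-69202722, plus strand): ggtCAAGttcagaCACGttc
BAX (chr19:49458470-49458489, plus strand): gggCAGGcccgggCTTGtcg
GADD45A (chr1:68152458-68152477, plus strand): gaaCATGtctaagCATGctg
ZMAT3 (chr3:178787976-178787995, minus strand): aaaCAAGtccagaCATGcct
BBC3 (chr19:47734577-47734596, minus strand): ctgCAAGtcctgaCTTGtcc

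The ZMAT3 match had 0 mismatches and began at position +1578, counted from +1 at the gene TSS, in intron 1. The GADD45A match had 1 mismatch and began at +1575, in intron 3. It lay 57 nts upstream of the GADD45A daTSS, read in the direction of antisense transcription. Over all 2956 daTSSs, 3 had a match of at most 2 mismatches and no spacer within 100 nts upstream, that of GADD45A among them. Within 100 nts on either side, 7 had one. These counts were made after the GADD45A position was seen.

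The MDM2 match had 2 mismatches and began at position -101 relative to the gene TSS, in intron 1. It was located between the gene TSS and the uaTSS, 63 nts from the latter, so that divergent initiation was called on either side of it. The printed BAX match had 2 mismatches and began at +159, in intron 1. BAX had 3 matches with at most 2 mismatches, the others overlapping the printed one and beginning at +147. With 3 mismatches allowed BAX had 7 matches, among them a match without a spacer that began at -600. At FDXR, half-sites separated by 10 nts with 2 mismatches began at -31, within the promoter sequence printed above. MDM4 and the upstream SESN1 TSS had matches of 2 mismatches with spacers of 4 and 5 nts, starting at +525 and at -942.

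TP53I3 and the internal SESN1 TSS had a match only when 3 mismatches were allowed, a setting under which 73.5% of all gene TSSs have one with any spacer. Their matches had no spacer. With 3 mismatches and no spacer, a setting chosen after the data were seen, the share was 11.5%. BBC3 likewise had matches only with 3 mismatches, in a window set around its MANE start at 47734456. The printed BBC3 match, also without a spacer, began at -140 from that start. It lay inside the locus listed with the BBC3 FPKM value, which reaches to 47736023. TP53I3 is known for a pentanucleotide repeat through which p53 acts. TGTCC or TGCCC, searched on both strands of the same window, occurred 15 times in tandem from position +418 of TP53I3, within the untranslated part of exon 1. None of the other 8 gene TSSs had more than 1 in a row, and TP53I3 was the only one of 10391 gene TSSs with a run of 15 or more, the next longest being 9. These counts are those of the reference genome, and the repeat length in T47D/A1-2 cells was not measured.

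Further genes of the pathway were taken from lists set by role. Of 34 other p53 target genes, 28 had an FPKM of at least 1, against 46.9% of all genes, and the median was 11.8. A gene TSS was called for 27 of the 34, against 46.9% of all genes by widened locus and 41.3% by nearest annotated start. Of the 28 genes at an FPKM of at least 1, 4 had none, where 79.1% of all genes at that level have one. All these background shares include non-coding genes, around which gene TSSs were not searched for, so they are not a like reference for protein-coding targets. Among the 27 genes with a gene TSS, a uaTSS was called at 14 and a daTSS at 3, beside 53.1% and 28.4% of all gene TSSs. Only 1 of the 34, EI24, with an FPKM of 203, exceeded TP53I3.

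Among 7 cell cycle targets, 6 had an FPKM of at least 1. Values ran from 0.245 for PLK3 to 147 for PLK2, both polo-like kinases, and all 7 had a called gene TSS. Among 12 apoptosis targets, 10 reached an FPKM of 1, and values ran from 0.328 for TP53AIP1 to 203 for EI24, an endoplasmic reticulum protein. The 5 DNA repair targets all reached an FPKM of 1, from 3.79 for the translesion polymerase POLK to 62.5 for the damage sensor DDB2. Of 10 targets in metabolism and stress, 7 did so, with the highest value, 63.3, for ALDH4A1, a mitochondrial aldehyde dehydrogenase, while SPATA18 was listed at 0.

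The 9 further regulators of p53 all had an FPKM of at least 1, and their median of 36.0 was above that of the targets. The highest was RPL11 at 737, a ribosomal protein that binds MDM2, and the lowest HIPK2 at 3.26, a kinase of p53. The related transcription factors TP63 and TP73 had FPKM values of 0.517 and 3.97, and neither had a called gene TSS.

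**Figure D4:**
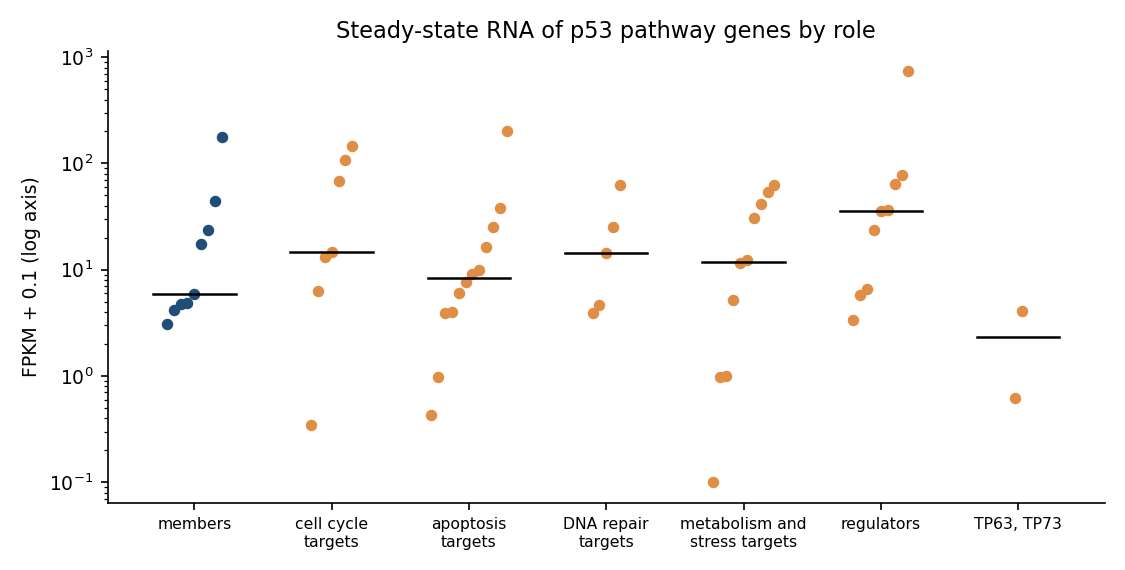
FPKM + 0.1 on a log axis for the 9 genes (blue) and for the further pathway genes by role (orange), 1 point per gene with the median as a bar. Medians were 5.87 for the 9 genes, 14.7, 8.34, 14.2 and 11.8 for the cell cycle, apoptosis, DNA repair and metabolism targets, and 36.0 for the regulators.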

How the data were processed

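Calls from 1 Start-seq library and merged RNA-seq values, all from T47D/A1-2 cells in a single growth condition, were used. Not used here were MNase-seq, FAIRE-seq and Start-seq replicate 2. TSS calls were deposited by the authors from Start-seq replicate 1 as single hg19 positions, obtained from uniquely mapped 5' ends after cutadapt 1.2.1 and Bowtie 0.12.8, with at least 5 reads at a position. The deposited score is 0 at every call, so depth is unknown. The deposited RNA-seq values are FPKM, which the authors computed with Cufflinks 2.2.1 after TopHat2 2.0.4 alignment, Picard de-duplication and merging of 3 replicates. The build of that alignment is not given in the sources used here, and the loci in the table were read as hg19.

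FPKM loci were widened by 1000 nts to find gene TSSs, and uaTSSs and daTSSs were joined by identifier. A gene TSS was assigned to the nearest protein-coding transcript start of GENCODE (lifted to GRCh37) within 1000 nts on the same strand, which succeeded for 10317. Of the 26175 gene symbols, 23609 matched the annotation by symbol or by a RefSeq synonym (28 had become dates). Python 3.11.15, numpy 2.4.6, pandas 2.3.3, scipy 1.17.1, numba 0.67.0, pysam 0.24.0 and matplotlib 3.10.9 were used. The sequence searches were tested on simulated sequence. The genes, the gene lists and the named genes (all 9, relatives of the 9, and the highest, lowest and zero values of each list) were chosen with earlier results of these data known. Not every listed gene is named here. Other limits, reference sets and search settings were tried, 2 of them chosen after the data were seen.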

Additional observations from a re-analysis of the deposited data

How the results depend on the processing

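Without replicate values or read counts, no error between replicates could be set against these descriptions, and intervals cover counting alone. The median percentile of the 9 genes by FPKM was 65.8 among all genes and depended on the reference, at 51.0 among genes above 0, 27.0 among genes at an FPKM of at least 1 and 23.6 among genes with a called gene TSS. With a pseudocount of 1 their median log2 FPKM was 2.78, and that of all genes 0.61. Requiring CA in place of a pyrimidine-purine pair left 4 of the 9 gene TSSs. Matches to the p53 site fell from 7 gene TSSs to 4 without a spacer and to 2 with at most 1 mismatch. With 3 mismatches and no spacer, a setting chosen after the data were seen, 7 gene TSSs had one, against 11.5% of all gene TSSs. The counts of called gene TSSs, uaTSSs, daTSSs and CpG islands stayed within 1.5 times under every alternative run for them, with 5 uaTSSs within 400 nts (44.0% of all gene TSSs), 2 daTSSs within 1000 nts (24.1%) and 6 islands by stricter limits (71.0%). Among gene TSSs with no other within 5000 nts, the background shares were 58.5% for uaTSSs and 32.9% for daTSSs.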

Other observations

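Relatives of the 9 genes were present at very different levels. Among sestrins, SESN2 had an FPKM of 12.2, SESN1 of 4.12 and SESN3 of 0.0027, and SESN3 had no called gene TSS. Among the GADD45 genes, GADD45B had the highest value at 23.2, followed by GADD45G at 10.0 and GADD45A at 4.63, and GADD45G carried both a uaTSS and a daTSS. Of the ferredoxins that accept electrons from FDXR, FDX1L had an FPKM of 14.9 and FDX1 of 5.98, both below the 23.6 of FDXR. CRYZ, a quinone oxidoreductase related to TP53I3, had an FPKM of 32.6, and ZMAT2 and ZMAT1 had 133 and 2.69.

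In the BCL2 family, which BAX and BBC3 belong to, the antiapoptotic BCL2L1 had the highest value at 190, with MCL1 at 91.1 and BCL2 at 0.181. BCL2 was called with a gene TSS, a uaTSS and a daTSS despite its low FPKM. The other pore formers, BOK and BAK1, had FPKM values of 21.3 and 16.3, below the 44.0 of BAX. Among genes of BH3-only proteins, BAD had 91.4, BID 25.2, BMF 22.3, BCL2L11 6.77, BBC3 5.87, BIK 5.69, PMAIP1 0.884 and HRK 0.047. PMAIP1, like BBC3 a p53 target, had a called gene TSS and a daTSS at an FPKM below 1, whereas BBC3 had the higher FPKM and no call.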
